A study of Homo sapiens with 10 samples.

Results

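SK-hep1 cells carrying the phosphorylation-defective PSPC1-Y523F were compared with mock control cells. PSPC1-Y523F is paraspeckle component 1 with a tyrosine that PTK6 phosphorylates replaced by phenylalanine. The comparison was chosen by its GEO labels and holds 2 of the 10 RNA-seq libraries of the series, 1 of each kind. The mock control and the mutant differ by the labels in the PSPC1 construct alone, and neither was given a PTK6 construct. The other 3 SK-hep1 transfectants expressed PSPC1, PSPC1/PTK6 or PSPC1-Y523F/PTK6, and they are used below to show where the mutant library lay among its neighbours. The PSPC1 cDNA was carried by an HA-tagged expression plasmid, and whether the sequenced cells were a pool or a drug-selected clone is not given in the sources used here. Every difference rests on the single mock library, which lay apart from all 4 transfectants over whole chromosomes or long parts of them. On the log2 scale the transfectants' median differences from mock were -0.45 to -0.40 on chromosome 13, -0.28 to -0.21 on chromosome 5 and -0.29 to -0.26 on chromosome 12. Chromosome 12 was not lower throughout, with medians of 0.17 to 0.48 from 80 to 100 Mb. On chromosome 19 beyond 40 Mb the medians were 0.22 to 0.42. These differences leave in doubt whether mock was a matched control, and the construct and other differences between the cultures cannot be told apart. With 1 library on each side there is no replicate check, so no p-value is given and every difference describes these libraries. Counting intervals and floors cover counting error only, because reads were not tied to single molecules.

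PSPC1 is a DBHS-family RNA-binding protein. With NONO, SFPQ and the long noncoding RNA NEAT1 it forms paraspeckles, nuclear bodies that hold RNA and proteins back from the rest of the nucleus. PTK6 is a non-receptor tyrosine kinase whose effects are known to differ between nucleus and cytoplasm. In liver cancer cells the study asked how losing the PTK6 phosphorylation site alters the epithelial-mesenchymal transition (EMT), stemness and Wnt programmes that PSPC1 acts on.

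Between 20222367 and 24278662 reads were assigned to genes in the 5 SK-hep1 libraries, with 21676724 in mock and 21087578 in PSPC1-Y523F. The labels call SK-hep1 a hepatocellular carcinoma line. Its hepatocyte genes were nearly silent: 24 of 27 hepatocyte markers lay under 1 FPKM (reads per kilobase of gene length, scaled to library size) in mock and 25 in the mutant, with ALB, TTR and FGB at 0 reads in all 5 libraries and SERPINA1 the main exception at 21.5 and 16.3 FPKM. Of 29 endothelial markers, 21 lay under 1 FPKM in both libraries, KDR and ERG were at 0, and ENG, EGFL7, S1PR1 and SOX18 were present at 13.0 FPKM or more. Of 10 blood cell markers, 9 lay under 1 FPKM in each library. Genes of the mitochondrial genome took 0.463% of reads in mock and 1.74% in PSPC1-Y523F, the outermost shares of the 5 libraries.

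PSPC1 itself had 0 reads in mock, which allows up to 0.0938 FPKM at 3 reads, and 71 reads in PSPC1-Y523F. The mutant level was 2.28 FPKM (95% Wilson interval 1.81 to 2.88), at least 24.3-fold higher. It was the lowest of the 4 PSPC1 transfectants, with 209 reads in PSPC1, 930 in PSPC1/PTK6 and 2539 in PSPC1-Y523F/PTK6. PTK6 stood at 4.79 FPKM in mock (4.26 to 5.39) and 4.09 FPKM in PSPC1-Y523F (3.60 to 4.66), with overlapping intervals. In the libraries given a PTK6 construct it stood at 16.7 and 10.5 FPKM.

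In all, 12382 genes averaging 1 FPKM or more were compared. The mutant library held 350 of them (2.83%) at 2-fold or more above mock and 305 (2.46%) at 2-fold or more below it. Among the 11179 protein-coding genes compared the order was reversed, with 235 higher and 261 lower. All differences below are of log2(quantile-normalized FPKM + 1), mutant minus mock, unless a fold is given. Their median was -0.01, 49.2% of the genes lay above 0, and 81.3% lay within 1.5-fold. In bulk libraries fewer cells with a transcript and less of it per cell cannot be told apart. The 4-fold mark was passed by 47 genes upwards and 31 downwards, and the 8-fold mark by 10 and 8. For 611 of the 655 genes past 2-fold the counting interval of the read ratio left out 1, and 68 of them had fewer than 20 reads in both libraries. Against the same mock library, 419 genes were higher and 272 lower in PSPC1, 633 and 413 in PSPC1/PTK6, and 427 and 197 in PSPC1-Y523F/PTK6. These comparisons share their control and are not independent of each other.

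**Figure D1:**
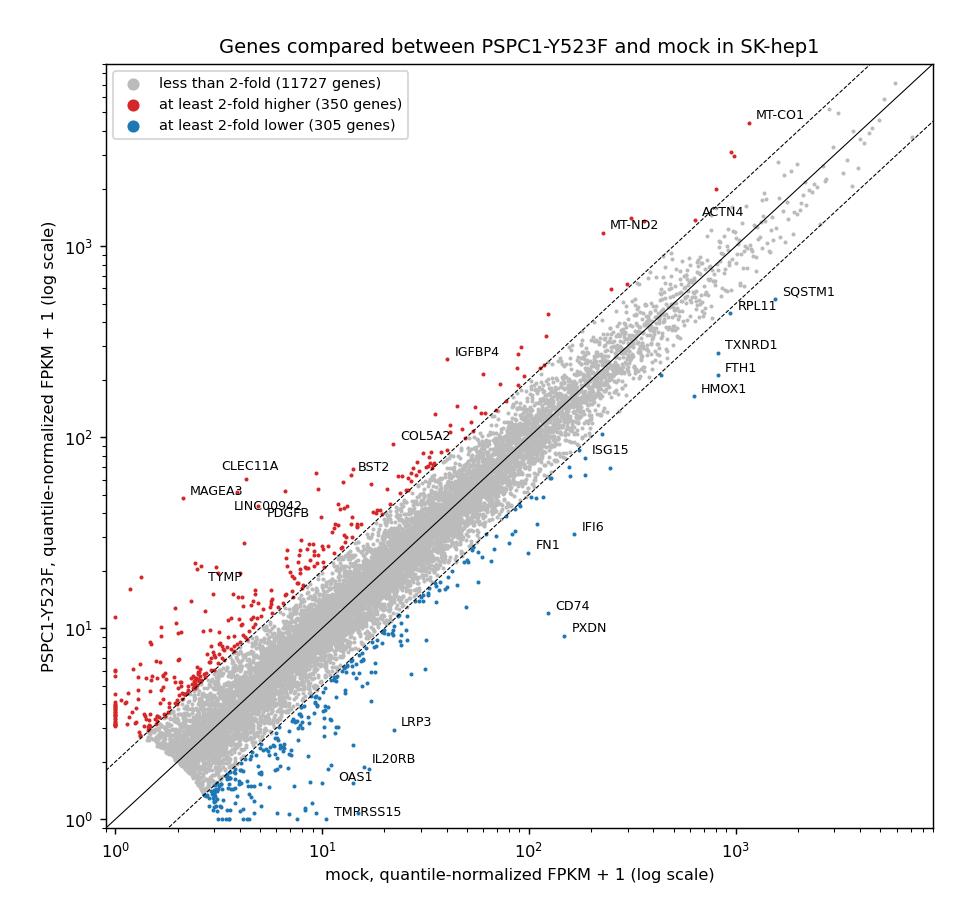
Quantile-normalized FPKM + 1 of every compared gene in mock (x axis) and PSPC1-Y523F (y axis), both on log scales, with 1 point a gene; the solid line marks equal levels and the dashed lines a 2-fold difference. The 350 higher genes (red) include MAGEA3 and the mitochondrial MT-CO1, and the 305 lower genes (blue) include PXDN, CD74 and the abundant SQSTM1, FTH1 and HMOX1.

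Most paraspeckle components lay within 2-fold of mock. The paraspeckle list of 21 genes also held MALAT1, the neighbour of NEAT1, which is not itself counted here as a paraspeckle component. PSPC1, the gene of the construct, and MALAT1 were at least 2-fold higher and none was lower. The list median was -0.14 (0.29 against the median of the other 3 transfectants). SFPQ, which dimerizes with PSPC1, had 440 FPKM in mock and 298 in the mutant, a difference of -0.55, and NONO had 632 and 538 FPKM, a difference of -0.21. NEAT1, the scaffold RNA of the paraspeckle, had 731 reads in mock and 1456 in the mutant, beside 1076 in PSPC1, 3831 in PSPC1/PTK6 and 412 in PSPC1-Y523F/PTK6. The mutant library thus held the second highest NEAT1 count, and its difference from mock was 0.96. MALAT1, a nuclear-retained RNA that neighbours NEAT1 on chromosome 11, ranked the libraries alike, with 172 reads in mock, 471 in the mutant and 161 to 1017 in the others. Of 24 genes of the PTK6 list (related kinases and substrates), 1 was higher, the growth factor receptor gene IGF1R at 1.13.

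The largest rise over mock was MAGEA3 (chrX:152698752-152702347, GRCh38), a cancer testis antigen, with 25 reads in mock and 1340 in PSPC1-Y523F, 55.1-fold higher in FPKM (95% counting interval 37.2 to 85.5). The other transfectants held 1006 to 1582 reads, so mock alone was low. MAGEA3 and CSAG3 (17 against 186 reads) have near-identical family copies, and their values are uncertain. Both lie on chromosome X between 140 and 160 Mb, where the compared genes had a median of 0.39. CLEC11A, a secreted growth factor for bone and blood precursors, went from 69 to 1404 reads, 20.9-fold (16.4 to 27.0). PSPC1 and PSPC1-Y523F/PTK6 were also high at 1708 and 1075 reads, whereas PSPC1/PTK6 stayed near mock at 113. CLEC11A lies on chromosome 19 beyond 40 Mb, where the median was 0.40. The part of these stretches in the values of MAGEA3, CSAG3 and CLEC11A was not tested. PDGFB, the platelet-derived growth factor B chain, had 100 reads in mock against 1204 in the mutant (12.4-fold, 10.1 to 15.3) and 738 to 1326 in the others. IGFBP4, a binding protein that sequesters insulin-like growth factors, was the most abundant nuclear gene among the 20 largest rises, at 36.9 FPKM in mock and 262 FPKM in the mutant.

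Further large rises fell into a pair of patterns. RIPOR3, RTP3, NOS3, VAV1 and TYMP were low in mock and raised in every transfectant. NOS3, the endothelial nitric oxide synthase, had 17 reads in mock and 265 to 322 in the other 4 libraries. TYMP, thymidine phosphorylase, had 42 reads in mock, 609 in the mutant and 586 to 1185 in the others; ODF3B overlaps it on the same strand and moved from 13 to 120 reads. RTP3 had 3 reads in mock and 358 in the mutant, a ratio of 123 with a counting interval of 41.6 to 598. Others were high in PSPC1 and PSPC1-Y523F and lower in a library with a PTK6 construct. CALB2, the calcium-binding protein calretinin, had 21 reads in mock, 446 in PSPC1 and 314 in PSPC1-Y523F, against 46 and 31 in PSPC1/PTK6 and PSPC1-Y523F/PTK6. LINC00942 had 121, 2932 and 2424 reads in the first 3, 1976 in PSPC1/PTK6 and 46 in PSPC1-Y523F/PTK6. The chemokine CCL2, which draws monocytes, had 6 reads in mock, 189 in PSPC1 and 108 in the mutant, and 34 and 19 in the libraries with PTK6. DIO2, the deiodinase that activates thyroid hormone, rose 17.4-fold from 49 to 829 reads, beside 158 in PSPC1-Y523F/PTK6 and 549 and 764 in PSPC1 and PSPC1/PTK6.

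PXDN was the largest fall. It encodes peroxidasin, the enzyme that cross-links collagen IV, and went from 148 FPKM in mock to 6.48 FPKM in PSPC1-Y523F, 22.9-fold lower (19.9 to 26.3). Its reads were 5098 in mock, 217 in the mutant, 174 in PSPC1, 3067 in PSPC1/PTK6 and 1377 in PSPC1-Y523F/PTK6, so PSPC1 and PSPC1-Y523F were both low. CD74, the invariant chain of MHC class II, fell 13.4-fold from 2377 to 173 reads, beside 171 in PSPC1, 1679 in PSPC1/PTK6 and 303 in PSPC1-Y523F/PTK6. The class II chain gene HLA-DPA1 had 216 reads in mock and 13 in the mutant, with 5 to 34 in the others. ITGA1, the alpha chain of a collagen-binding integrin, fell 24.2-fold from 1220 to 49 reads. IL20RB, a receptor chain for IL-20 family cytokines, had 416 reads in mock and 19 in the mutant. GFPT2, which feeds the hexosamine pathway, had 243 and 8 reads. CD74, ITGA1 and GFPT2 lie on chromosome 5, where the compared genes had a median of -0.27. How much of that lay in their values was not tested.

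A set of the largest falls was expressed chiefly in mock. TMPRSS15, the intestinal protease enteropeptidase, had 308 reads in mock, 0 in PSPC1-Y523F and 0 or 1 elsewhere, at least 99.9-fold lower. ITM2A had 236 reads in mock and 1 in the mutant, a ratio of 230 with a counting interval of 40.8 to 9106, and 0 to 7 in the others. DAPK1, a calmodulin-regulated kinase that promotes cell death, had 386 reads in mock and 3 in the mutant, with 5 to 16 in the others. ELMO1, which works with DOCK proteins to activate Rac, had 146 reads in mock and 1 in the mutant, and 0 in the other 3. TRIM55 (258 against 4 reads), SLCO2B1 (221 against 3) and GRB10 (176 against 2) were of the same kind, with at most 32 reads in any other library. For these genes the mutant did not lie apart from the other transfectants.

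**Figure D2:**
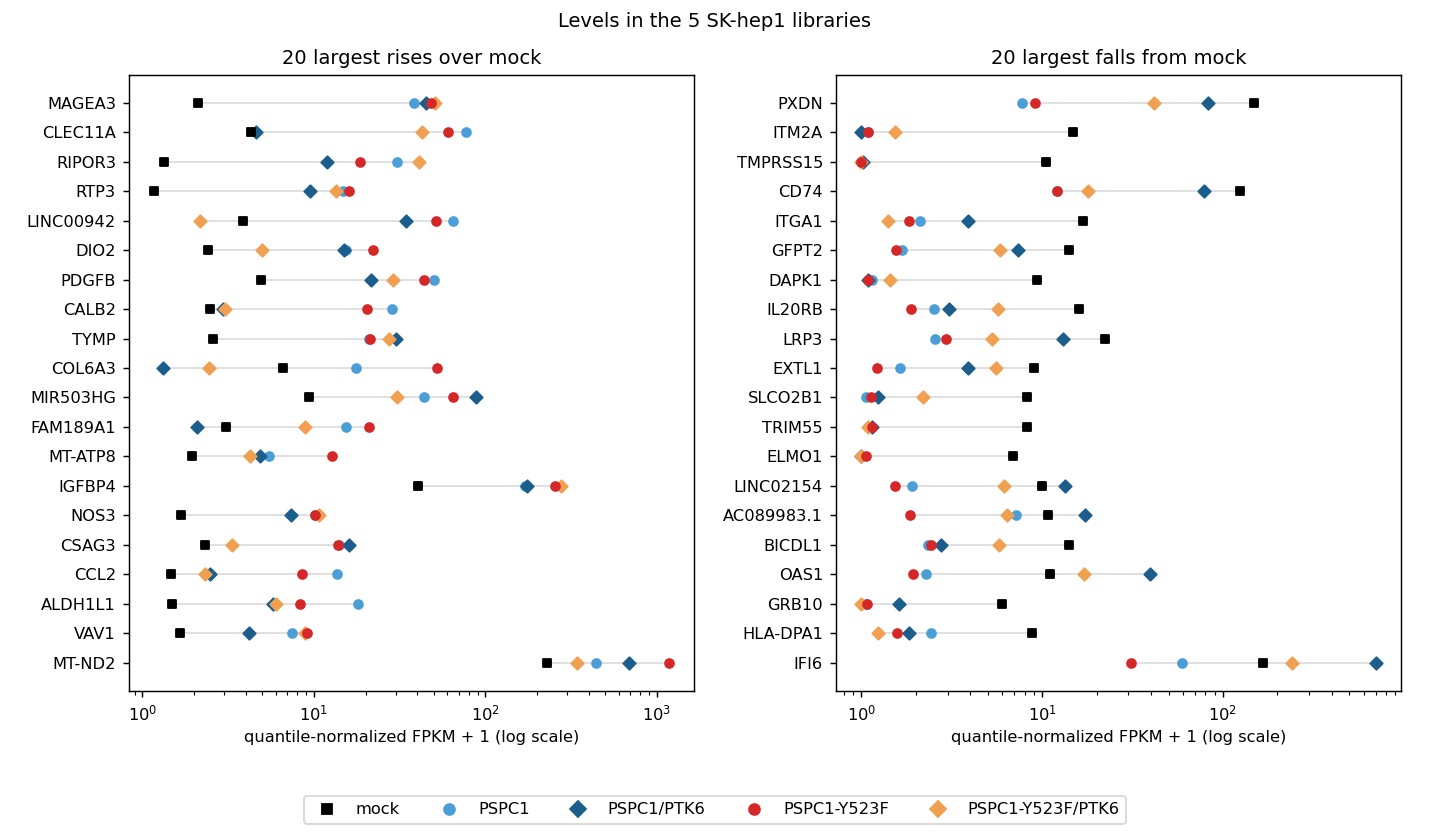
Quantile-normalized FPKM + 1 (log scale) of the 20 largest rises (left) and 20 largest falls (right) in all 5 SK-hep1 libraries, with 1 marker a library. Mock (black squares) lies at the far left or right for genes such as RTP3, NOS3, TMPRSS15 and DAPK1, while for COL6A3, CALB2, PXDN and OAS1 the transfectants themselves are spread out.

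The interferon-stimulated genes had the lowest median of the lists with at least 5 compared genes. Interferons signal through STAT and IRF factors to switch on antiviral genes carrying a GAAA-repeat element, the interferon-stimulated response element. Of 42 compared genes of the list, 16 were at least 2-fold lower, 1 was higher and 41 lay below 0, with a median of -0.86 against -0.01 for all genes. PSPC1-Y523F had the lowest level of the 5 libraries for 34 of the 42, where it was lowest for 22% of all compared genes. OAS1, which senses double-stranded RNA, had 217 reads in mock and 16 in the mutant, beside 23 in PSPC1, 1062 in PSPC1/PTK6 and 363 in PSPC1-Y523F/PTK6. The antiviral gene IFI6 had 2976, 479, 904, 14209 and 5025 reads in the same order. ISG15, a ubiquitin-like modifier, had 2920, 1114, 2037, 22528 and 4162 reads. In each of these 3 genes the mutant library was lowest and PSPC1/PTK6 highest. IRF7, the factor that amplifies interferon production, fell 3.31-fold (2.81 to 3.92), OAS2 fell 6.33-fold (4.92 to 8.25) and OAS3 fell 3.42-fold (3.20 to 3.66). STAT2, a subunit of the factor that binds this element, differed by -0.28 and did not pass 2-fold. BST2 (tetherin), which holds budding virus on the cell surface, was the exception at 150 reads in mock and 757 in the mutant, beside 218 to 2987 in the others. OAS1, OAS2 and OAS3 lie on chromosome 12 between 100 and 120 Mb, where the compared genes had a median of -0.42, and OASL lies just beyond. The part of that stretch in their values was not tested.

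The response-element letters GAAANNGAAA were searched on both strands in the 250 bases before each gene start, in the RefSeq promoters of GRCh38.p14. They were present in 3.07% of 27305 promoters. Of the 16 lower interferon-stimulated genes, 13 had a promoter in the table and 9 of those held the letters, as did 20 of the 32 with a promoter among the 42 compared. The windows below show 2 lower genes and BST2, since the gene that moved the other way held the same element. They are written along the gene, with the matching letters in capitals; overlapping matches run together.
IFI6 (chr1:27672251-27672327, minus strand): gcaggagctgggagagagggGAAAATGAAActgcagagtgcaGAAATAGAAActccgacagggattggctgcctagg
ISG15 (chr1:1013364-1013424, plus strand): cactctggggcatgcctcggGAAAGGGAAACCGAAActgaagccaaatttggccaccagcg
BST2 (chr19:17405720-17405780, minus strand): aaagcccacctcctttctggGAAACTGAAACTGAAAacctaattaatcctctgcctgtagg
The search gave no match for OAS1, IFI35, MX1 and SAMD9L in this window. A match describes the letters of the window and was not tested as a binding site.

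Other immune genes were lower in part. Of 27 NF-kB target cytokines and regulators, 5 were lower, 2 were higher and 19 lay below 0, with a median of -0.39, and the mutant was the lowest of the 5 libraries for 14. That median was -0.14 without the filter on low FPKM and -0.72 against the median of the other 3 transfectants. IL1B had 177 reads in mock and 25 in the mutant (6.89-fold lower, 4.52 to 10.9), and IL1A had 130 and 12. Both cytokines initiate inflammation, and both were highest in PSPC1/PTK6, at 430 and 943 reads. IL32, TNFRSF9 and TNFAIP3 were the other lower genes, and CCL2 and LIF the higher ones. Of 19 genes of MHC class I and peptide loading, only the immunoproteasome subunit PSMB9 passed 2-fold, at 82.7 FPKM in mock and 38.2 FPKM in the mutant, while HLA-B, HLA-C and B2M differed by -0.11, -0.25 and -0.22.

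Redox and iron genes were among the most abundant falls. NRF2 is the transcription factor that answers oxidative stress. Of its 26 compared targets, 3 were lower, 1 was higher and 20 lay below 0, with a median of -0.37. HMOX1, heme oxygenase, had 13866 reads in mock and 3365 in the mutant, beside 6052 in PSPC1, 9299 in PSPC1/PTK6 and 5906 in PSPC1-Y523F/PTK6. FTH1, the ferritin heavy chain that stores iron, had 14484, 3461, 4527, 11428 and 11879 reads in that order, and TXNRD1, thioredoxin reductase, had 37372, 11989, 28078, 36376 and 19168. TXNRD1 lies on the same stretch of chromosome 12 as OAS1, OAS2 and OAS3. The mutant was lowest for all 3 genes, with falls of 4.01-, 4.07- and 3.03-fold. The autophagy receptor SQSTM1 fell from 1658 to 544 FPKM, and lysosomal CTSL and GM2A fell 2.19- and 3.18-fold. SQSTM1 and GM2A lie on chromosome 5, where the compared genes had a median of -0.27, and its part in their values was not tested. Not all of the list followed: NQO1 differed by -0.14, FTL by -0.14 and GCLC by 0.11, and the transporter ABCC3 had 88 reads in mock and 552 in the mutant.

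Extracellular matrix genes moved both ways. Of 20 collagens, 6 were higher and 5 lower. COL6A3 showed the largest difference, with 522 reads in mock and 5207 in the mutant, 10.3-fold over mock (9.37 to 11.2), beside 1497 in PSPC1, 42 in PSPC1/PTK6 and 125 in PSPC1-Y523F/PTK6. Its partner chain COL6A1 went the other way, from 830 to 229 reads, with 2742 in PSPC1/PTK6. The fibrillar COL5A2 and COL5A1 were higher by 2.07 and 1.39, and COL1A1 fell from 15.4 to 3.67 FPKM. Fibronectin (FN1), the adhesive matrix glycoprotein, fell 4.53-fold from 8298 to 1781 reads, beside 1476 in PSPC1, 1068 in PSPC1/PTK6 and 4062 in PSPC1-Y523F/PTK6. Of 34 matrix glycoproteins and cross-linking enzymes, EFEMP1 was higher and FN1 and PXDN lower. Of 38 integrins and focal adhesion adaptors, ITGB4, TNS2 and the actin cross-linker ACTN4 were higher, and ITGA1 was lower. ACTN4 went from 22362 to 49366 reads, and the other 3 transfectants held 47887 to 54416.

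EMT genes showed no single direction. Of 31 mesenchymal genes 6 were higher and 3 lower, and 6 of these 9 were collagens, the others being IGFBP3, TAGLN and FN1. TAGLN had 33 reads in mock and 115 in the mutant. It overlaps PCSK7 on the opposite strand, at 401 and 646 reads, and without strand their reads cannot be told apart. Of 22 epithelial genes, KRT19 was higher (305 to 646 FPKM) and CLDN1, KRT7, CD24 and ELF3 were lower. KRT7, a simple-epithelium keratin, had 376 reads in mock and 78 in the mutant, and CLDN1, a tight-junction claudin, had 212 and 58. None of 7 compared EMT transcription factors passed 2-fold, with SNAI2 at 16.3 and 13.7 FPKM and TWIST1 at 21.2 and 29.3 FPKM. CDH1 was at 0 reads in both libraries and CDH2 at 4 and 3, so neither cadherin could be compared at this depth. SNAI1 had 1 read in mock and 0 in the mutant.

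In the Wnt pathway, ligands and receptors and target genes did not move as a block. Of 21 ligands, receptors and secreted inhibitors, WNT7B, SFRP1 and DKK3 were higher and none lower. WNT7B, a ligand, had 14 reads in mock, 132 in the mutant, 130 in PSPC1, 19 in PSPC1/PTK6 and 339 in PSPC1-Y523F/PTK6. SFRP1, which binds and blocks Wnt ligands, had 49.5 FPKM in mock and 117 FPKM in the mutant. WNT3A had 1 read in the mutant and 0 in the other 4 libraries. CTNNB1, which encodes beta-catenin, lay at 174 and 140 FPKM, a difference of -0.29. Of 20 Wnt/beta-catenin targets, PPARD was higher and LGR4 and NKD2 lower, and MYC lay at 169 and 158 FPKM. JUP (plakoglobin) had 40.3 FPKM in mock and 34.5 FPKM in the mutant.

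Of 28 TGF-beta ligands, receptors and SMADs, the receptor ACVRL1 was lower and none was higher, and TGFB1 differed by 0.63. Of 38 TGF-beta response genes, 5 were higher (PDGFB, IGFBP3, TAGLN, TIMP3 and LIF) and FN1 was lower. The limit given above for TAGLN and PCSK7 holds here too. IGFBP3 went from 118 to 350 FPKM and also belonged to the 3 higher genes of 25 YAP/TAZ targets, with tissue factor (F3) and endothelin-1 (EDN1). TGFA, a ligand of the EGF receptor, had 80 reads in mock and 13 in the mutant. Of 20 stemness genes, KRT19 was higher and CD24 lower, NANOG was at 0 reads in both libraries, SOX2 at 0 in both and POU5F1 at 11 and 4 reads. MET lay at 40.4 and 47.5 FPKM, and its ligand HGF was at 0 reads.

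In the lists of MYC targets, G1/S and G2/M genes, KIF18A alone passed 2-fold. The cyclin-dependent kinase inhibitor gene CDKN1C, outside those lists, differed by -1.46. None of 53 MYC targets and none of 51 G1/S and DNA replication genes passed 2-fold, and of 50 G2/M and mitotic genes KIF18A, a mitotic kinesin, was lower at -1.04. Set beside the other libraries, the mutant held the highest level of the 5 for 26 of the 51 G1/S genes and the lowest for 0, and for MYC targets the highest for 21 of 53 and the lowest for 1. Over all compared genes it was highest for 25.9% and lowest for 22%. Taken against the median of the other 3 transfectants in place of mock, the G1/S list had a median difference of 0.66 and the MYC targets 0.27, where against mock they had 0.08 and -0.01. MCM7, a subunit of the replicative helicase, had 507 FPKM in mock and 614 FPKM in the mutant. Ribosomal protein genes leaned down: 59 of 78 lay below 0 and 16 above, where 49.2% of all compared genes lay above 0. Their median was -0.25, and RPL11 was lower, from 974 to 469 FPKM. Of 38 genes of the unfolded protein and ATF4 response, DDIT3, ATF3, PHGDH and PSPH were lower. Lists with few or no genes past 2-fold were p53 targets (CCNG1 lower, of 34), cholesterol synthesis (0 of 28), fatty acid synthesis (ACSL3 lower, of 22), hypoxia and glycolysis (SLC2A1 higher and NDRG1 lower, of 37), matrix proteases and inhibitors (TIMP3 higher, MMP19 and CTSL lower, of 29), immediate early genes (SPRED3 higher, EGR1, ATF3 and NR4A1 lower, of 33) and metallothioneins (0 of 5). Among 33 growth factors and receptor ligands, CLEC11A, PDGFB, IGFBP4, IGFBP3 and IGF1R were higher and TGFA was lower. Of 7 compared cancer testis antigens MAGEA3, CSAG3 and CSAG1 were higher and the other 4 lay below 0, with a median of -0.16. The list held 44 genes, of which 40 lay under 1 FPKM in mock and 35 in the mutant, so few could be compared. CSAG1 passed the filter only through the mutant, at a quantile-normalized FPKM of 0.597 in mock and 2.26 in the mutant (7 and 28 reads).

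**Figure D3:**
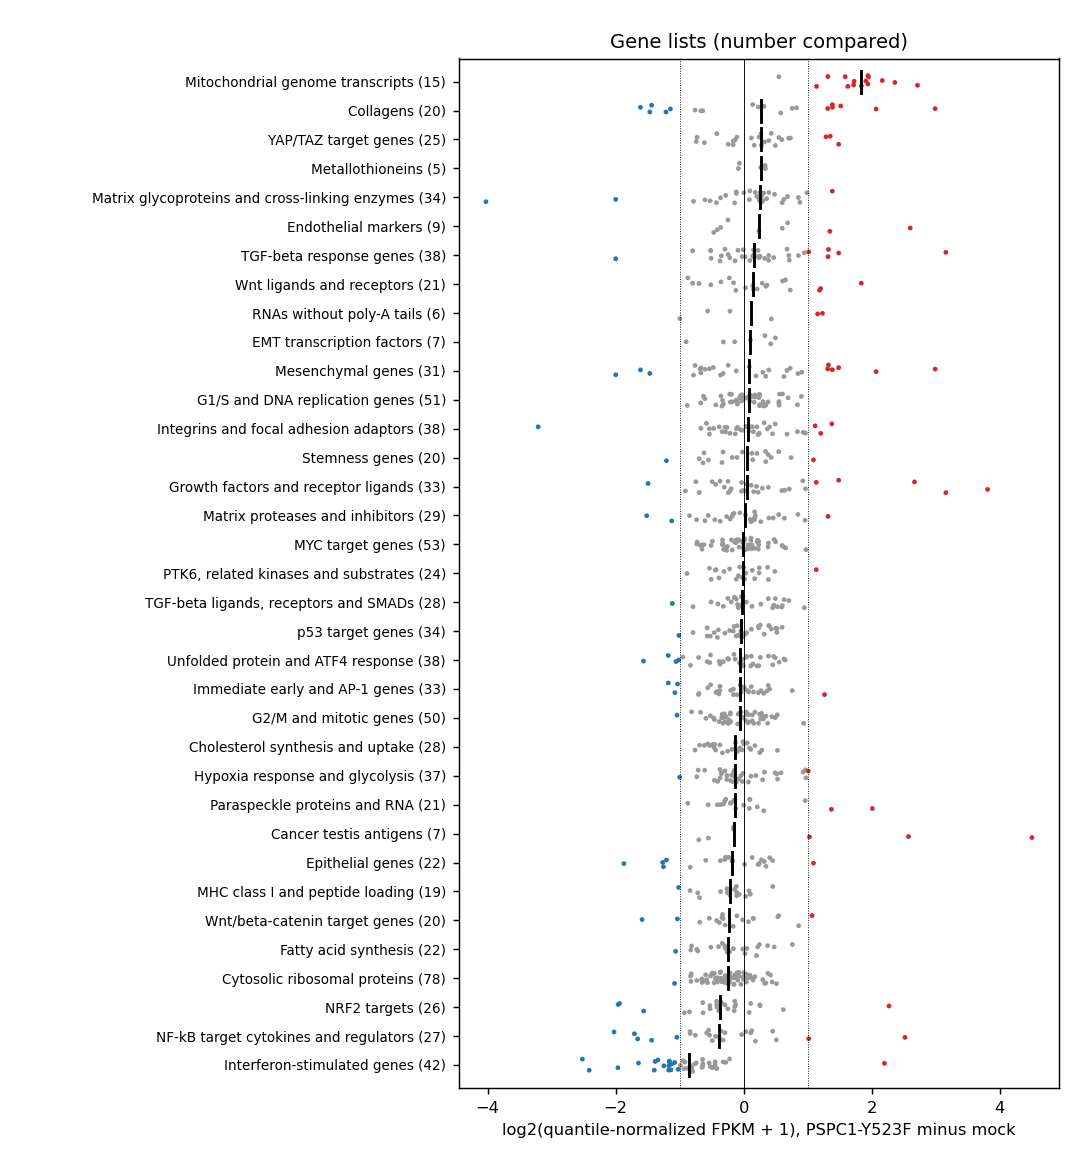
Differences of log2(quantile-normalized FPKM + 1), PSPC1-Y523F minus mock, for each compared gene (points) of the lists with at least 5 compared genes, with the list median as a black bar; red points are at least 2-fold higher, blue points at least 2-fold lower, and dotted lines mark 2-fold. Mitochondrial transcripts have the highest median (1.84) and interferon-stimulated genes the lowest (-0.86).

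Transcripts of the mitochondrial genome had the highest median of the lists. They encode subunits of the respiratory chain and the mitochondrial ribosomal RNAs. Of 15 compared, 14 were at least 2-fold higher and none lower, with a median of 1.84. MT-CO1, the catalytic subunit of cytochrome oxidase, had 39940 reads in mock and 152346 in the mutant, beside 65000 in PSPC1, 99468 in PSPC1/PTK6 and 42891 in PSPC1-Y523F/PTK6. MT-ND2, a complex I subunit, went from 225 to 1210 FPKM. The mutant had the highest level of the 5 libraries for 10 of the 15. The other 5 genes ordered the libraries differently: MT-CYB had 192 reads in mock and 829 in the mutant, beside 8508 in PSPC1, 327 in PSPC1/PTK6 and 9569 in PSPC1-Y523F/PTK6, and MT-ND5 had 190, 843, 5930, 340 and 5707 in that order. MT-ND6, MT-RNR1 and MT-RNR2 were likewise far higher in PSPC1 and PSPC1-Y523F/PTK6 than in the mutant. MT-ATP8 overlaps MT-ATP6, and nuclear copies of mitochondrial genes can share reads with them. Among small RNA classes, 25 of 58 microRNA genes were higher and 6 lower, 11 of 17 misc_RNA genes and 9 of 33 snoRNA genes were higher and none of these lower, and 5, 3 and 2 of the higher genes reached 20 reads in 1 library. A list of RNAs without poly-A tails had no common direction: of 6 compared, 3 lay above 0 and 3 below, with a median of 0.11, and RN7SL2 and SNORA73B were higher. SNORA73B rests on 5 reads in mock and 16 in the mutant (counting interval 1.15 to 11.5). RCC1 and SNHG3 overlap it on the same strand. In a library selected for poly-A tails the part of RNA selection in these values was not tested.

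**Figure D4:**
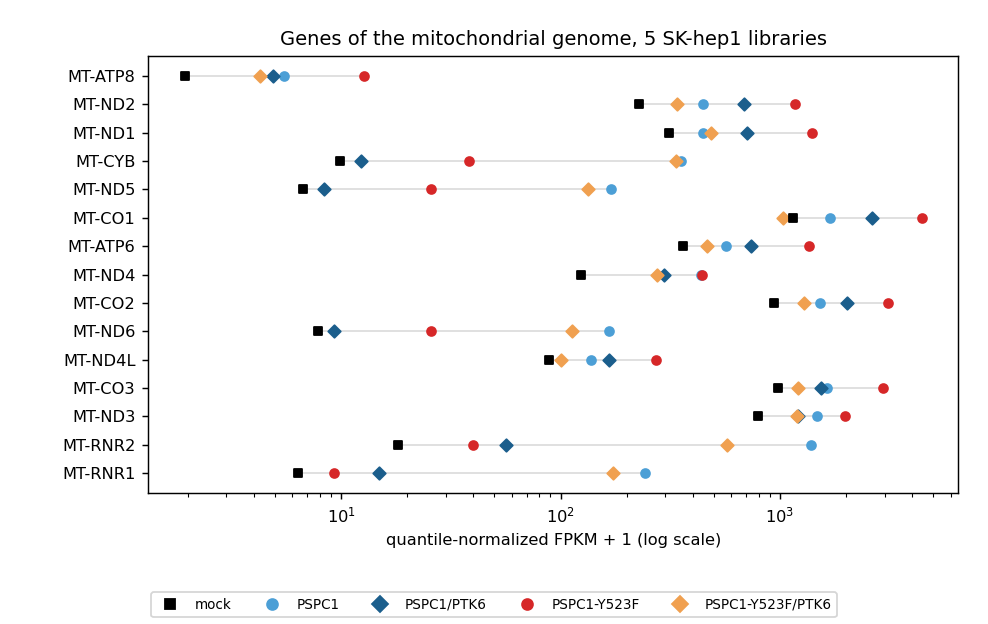
Quantile-normalized FPKM + 1 (log scale) of the 15 mitochondrial genes in the 5 SK-hep1 libraries, with 1 marker a library. PSPC1-Y523F (red) is highest for 10 genes, whereas MT-CYB, MT-ND5, MT-ND6, MT-RNR1 and MT-RNR2 are highest in PSPC1 or PSPC1-Y523F/PTK6.

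Some genes set the mutant apart from all other SK-hep1 libraries. Of 12449 genes compared across the 5, PSPC1-Y523F was at least 2-fold above the highest other library for 29 (0.233%) and at least 2-fold below the lowest other library for 23 (0.185%). By the same measure mock stood apart for 37 and 73 genes, PSPC1 for 12 and 7, PSPC1/PTK6 for 130 and 32, and PSPC1-Y523F/PTK6 for 57 and 17. COL6A3 was the most strongly expressed of the leading genes above, and the lincRNA AC112721.2 on the same stretch of chromosome 2 had 78 reads in the mutant, 9 in mock, 17 in PSPC1, 1 in PSPC1/PTK6 and 0 in PSPC1-Y523F/PTK6. AC112721.2 lies at chr2:237428920-237434822 and COL6A3 at chr2:237324003-237414375 in the deposited annotation, so the pair does not overlap. MCAM, an adhesion molecule of endothelium and melanoma, had 183 reads in the mutant and 33 to 62 elsewhere. NAPRT, which makes NAD from nicotinic acid, had 181 reads against 31 to 75. GNG13, DAW1, RIBC2, LRRC71, MT-ATP8 and AC027796.4 completed the leading 10, with GNG13 at 68 reads against 1 to 11; GNG13, AC027796.4, MCAM and NAPRT overlap CHTF18, CTNS, CBL and AC067930.5 on the opposite strand, and without strand their reads cannot be told apart. CHTF18 had 1747 reads in mock and 3500 in the mutant, far more than GNG13 and in the same direction. CTNS had 685 and 785, CBL had 1551 and 1575, and AC067930.5 had 23 and 52.

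On the low side the mutant stood below the rest for IDH2, HDAC5, CDKN1C, SAA1, IL34, OPRL1, CDC42EP5, OLMALINC, AL161431.1 and AC089983.1. IDH2, the mitochondrial NADP-dependent isocitrate dehydrogenase, had 679 reads in PSPC1-Y523F against 2324 in mock, 2171 in PSPC1, 3669 in PSPC1/PTK6 and 6277 in PSPC1-Y523F/PTK6. HDAC5, a class II histone deacetylase, had 247 reads against 949 to 2385. CDKN1C, the cyclin-dependent kinase inhibitor p57, had 66 reads against 242 to 688. SAA1, an acute-phase protein, had 5 reads against 42 to 187, and IL34, a ligand of the CSF1 receptor, had 18 against 83 to 1203. AL161431.1 had 318 reads against 1322 to 2883. AC089983.1, at 9 reads against 70 to 293, lies antisense within TXNRD1, itself lower in the mutant, and the strand of counting is not given in the sources used here. These genes did not overlap with any other library's level by the rule that chose them, so no test is attached to them.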

How the data were processed

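Total RNA of SK-hep1 transfectants was sequenced after poly-A selection (NEBNext Ultra), per the labels; the study's methods name ribosomal RNA depletion instead. The authors deposited a read count and an FPKM per gene for each library. TopHat2 2.0, HTSeq 0.6.1, edgeR and GRCh38.p12 stand in the submitters' processing notes without roles, and another build stands in the study's methods. The deposited FPKM were not quantile normalized. Of 58302 genes, 58039 were named from GENCODE 29; 8 lines without values were left out.

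FPKM were quantile normalized over the 8 SK-hep1 and Mahlavu libraries, a pseudocount of 1 was added, and genes averaging 1 FPKM or more in mock and PSPC1-Y523F were compared at a 2-fold threshold. No test was run, since each condition has 1 library. Genes standing apart lay 2-fold outside the other 4 SK-hep1 libraries (genes averaging 1 FPKM or more over the 5). Folds are ratios of deposited FPKM with exact (Clopper-Pearson) 95% counting intervals on the reads; a library at 0 was set to 3 reads. The steps were checked on simulated data.

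Named genes were, among coding and long noncoding genes with 20 reads in 1 library, the 20 largest rises and falls, the 10 most apart in each direction, the 10 most abundant past 2-fold in each direction, up to 6 past 2-fold per list (the 3 most abundant where none passed) and genes the study names; other list members are given as examples chosen with their values seen. The comparison, the 37 lists and the members were chosen with earlier results of these data known. The 11 alternatives changed the pseudocount, scaling, filter, count model (edgeR 4.0.16 TMM with prior count 2, DESeq2 1.42.0 size factors) or baseline. Python 3.11.15, pandas 2.3.3, scipy 1.17.1 and R 4.3.3 were used. Promoter sequences are RefSeq's on GRCh38.p14. The Huh-7 libraries were not used here. Some genes of the lists are not reported here by name.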

Additional observations from a re-analysis of the deposited data

How the results depend on the processing

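No paired analysis was possible because each condition has 1 library, and leaving out a library would leave none. The 350 higher, 305 lower, 29 above-all and 23 below-all genes became 546, 510, 53 and 105 with a pseudocount of 0.1, 135, 79, 6 and 5 with a pseudocount of 5, 560, 658, 45 and 134 with read counts and TMM factors, and 641, 616, 58 and 136 with DESeq2 size factors. Without a filter 69 genes lay above all other libraries; among genes averaging 5 FPKM or more 191 were higher, 155 lower and 7 above all. The counts were 296 higher and 351 lower on the deposited FPKM, and 252 and 368 against the median of the other 3 transfectants. A further pair of alternatives was chosen after seeing the data: leaving out mitochondrial genes gave 341 and 306, and leaving out chromosomes 5, 12 and 13 gave 337 and 227.

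The named genes past 2-fold kept their direction under every alternative but the last baseline. There 126 of the 136 were compared, 108 kept it and 54 stayed past 2-fold. Genes low in the mutant and the other transfectants failed the filter, among them TMPRSS15, ITM2A, DAPK1, ELMO1, TRIM55, SLCO2B1, GRB10 and ITGA1. Against that baseline ELMO1 (0.085), TRIM55 (0.069) and GRB10 (0.028) also lay above 0, and TMPRSS15 was at 0. They are not among the 18 listed below. With a pseudocount of 5, 93 of 136 stayed past 2-fold, and under each of the other 9 alternatives at most 2 of those compared fell short of it. Apart from the last baseline, the alternatives re-used the same mock and mutant libraries. A direction kept under them was nearly fixed in advance and is no independent check. The 18 that turned under the last baseline were, as log2 differences from the other transfectants, RIPOR3 (-0.73), TYMP (-0.38), NOS3 (-0.0065), CSAG3 (-0.0083), BST2 (-0.84), COL5A2 (-0.41), PSPC1 (-2.72), MT-CYB (-3.13), MT-ND5 (-2.37), EFEMP1 (-0.47), ITGB4 (-0.88), TIMP3 (-0.81), TNS2 (-0.36), DKK3 (-0.87), PHGDH (1.39), EGR1 (0.89), CTSL (0.19) and FN1 (0.20). That baseline replaces the mock library, and the cause of each turn was not tested. The median of the interferon-stimulated genes ranged from -1.09 to -0.56 and that of the mitochondrial transcripts from 0.93 to 2.01 over the 11 alternatives. Genes under 20 reads carry wide counting intervals.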

Other observations

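Genes of some chromosomes differed from mock together. The median difference of PSPC1-Y523F from mock was -0.45 over 205 compared genes of chromosome 13, -0.27 over 567 genes of chromosome 5 and -0.27 over 662 genes of chromosome 12, beside -0.01 over all genes. In PSPC1, PSPC1/PTK6 and PSPC1-Y523F/PTK6 the medians from the same mock library were -0.40, -0.42 and -0.44 on chromosome 13, -0.26, -0.21 and -0.28 on chromosome 5, and -0.26, -0.29 and -0.27 on chromosome 12. All 4 comparisons share mock, so they are not independent. Along chromosome 13 the mutant's median lay between -0.54 and -0.16 in the windows of 20 Mb from 20 Mb on, where the window from 60 Mb holds 19 genes. On chromosome 12 it was -0.42 from 100 to 120 Mb and 0.17 from 80 to 100 Mb. On chromosome 19 the median was -0.05 in the first 20 Mb, 0.32 from 20 to 40 Mb and 0.40 over 356 genes beyond 40 Mb. On chromosome X it was 0.39 over 66 genes from 140 to 160 Mb, and 0.31 to 0.49 there in the other transfectants.

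OAS1, OAS2, OAS3 and OASL lie on chromosome 12, and TXNRD1, KRT7 and DDIT3 too. CD74, ITGA1, GFPT2, SQSTM1 and GM2A lie on chromosome 5 and AL161431.1 on chromosome 13. Without chromosomes 5, 12 and 13, 12 of 36 interferon-stimulated genes were at least 2-fold lower and 35 lay below 0, with a median of -0.83, beside 2.07% of 10948 genes lower. That set is not free of shifted stretches. The mutant's median was -0.33 on chromosome 11 up to 20 Mb, which holds IRF7 and IFITM1. It was -0.19 on chromosome 1 from 20 to 40 Mb, which holds IFI6, and 0.13 below 20 Mb, which holds ISG15. The part of these differences along chromosomes in the single-gene values was not tested.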
